A study of Mus musculus with 6 samples.

Results

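*Il9r* and the sequence on its far side form the outermost upstream flank of the mouse α-globin region, chr11:32070001-32100279 in mm9. The flank spans 30.279 kb. It was defined by position alone, as every fragment pair with at least 1 fragment midpoint in this interval. Of the 145873 different fragment pairs in the 12 contact tables, each counted once over all tables, 5092 met this rule, and over the 12 tables they hold 10695 of 349609 contacts. *Il9r* itself (ENSMUSG00000020279.4, minus strand) runs from 32087541 to 32100279, so that its promoter faces the globin genes and its 3′ end faces away from them. The 17.54 kb beyond the 3′ end are intergenic except for the pseudogene *Gm12109*, from 32085005 to 32085701 on the plus strand.

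Tri-C measures which 2 further restriction fragments, called reporters, were joined to a captured viewpoint fragment on the same allele. The viewpoints were R2, the strongest α-globin enhancer, and the promoter of *Mpg*, a gene for a DNA repair glycosylase, and both were captured from the same 6 biological replicates. The 3 WT and 3 D3839 replicates came from Ter-119+ erythroid cells, selected with magnetic beads from the spleens of female mice, WT C57BL/6 or D3839. D3839 mice carry small deletions in the CTCF motifs of HS-38 and HS-39, and all mice, controls included, had been treated with phenylhydrazine, which destroys red cells and fills the spleen with erythroid precursors. The labels call the replicates biological but do not give the number of mice behind each. By the methods, D3839 libraries used the NEBNext Ultra II kit and those of WT an earlier NEBNext set, so that kit and genotype cannot be told apart. The contact tables hold no reads and no expression, so that neither the deletions nor the erythroid identity could be checked in them.

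*Il9r* encodes the ligand-binding chain of the receptor for interleukin-9. It is a type I cytokine receptor that pairs with the common γ chain and signals through JAK and STAT proteins, and it is best known from T cells and mast cells. Chromatin loops tend to stop at sites where CTCF halts cohesin, and removing such sites lets contacts spread into the neighbouring domain. *Il9r* lies beyond *Snrnp25*, *Rhbdf1* and *Mpg* as seen from HS-38, HS-39 and the α-globin enhancers, at the upstream end of the region that was measured.

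The *Il9r* promoter is shown because the window around it gave other values with R2 than with *Mpg*. The sequence is that of RefSeq (GRCm38.p6), 250 bases before to 50 after the start site, and it is identical to mm9 chr11:32100230-32100529, here on the minus strand as the gene is read. Capitals mark the letters AGATAA, the core that GATA factors of erythroid cells recognise, searched on both strands.

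Il9r promoter: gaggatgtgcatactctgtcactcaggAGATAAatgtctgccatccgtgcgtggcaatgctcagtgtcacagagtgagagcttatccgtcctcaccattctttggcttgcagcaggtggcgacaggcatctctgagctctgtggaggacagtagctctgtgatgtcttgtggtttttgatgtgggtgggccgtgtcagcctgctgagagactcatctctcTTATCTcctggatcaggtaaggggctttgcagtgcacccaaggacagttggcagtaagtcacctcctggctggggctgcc

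It holds 2 matches, and 11.2% of 32851 RefSeq promoters of the same length hold at least 1. It contains 0 NlaIII sites, so that the whole promoter lies within 1 restriction fragment of 486 bases (chr11:32100218-32100703). The midpoint of this fragment lies beyond 32100279, so by the midpoint rule it belongs neither to the flank nor to the *Il9r* body. Below it is counted in the neighbouring segment with *Snrnp25* and *Rhbdf1*. The 3 fragments of the flank with the most reporter ends all lie in introns of *Il9r*. The first is 1279 bases long (chr11:32098447-32099725) and the other two are shown with the letters left by the NlaIII cut in capitals, on the plus strand of mm9, since contacts are counted in units of such fragments.

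Il9r intron fragment, chr11:32096771-32096909: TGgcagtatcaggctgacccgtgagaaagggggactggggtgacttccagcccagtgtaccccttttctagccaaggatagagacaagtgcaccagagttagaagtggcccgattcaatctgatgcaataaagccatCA

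Il9r intron fragment, chr11:32099805-32099896: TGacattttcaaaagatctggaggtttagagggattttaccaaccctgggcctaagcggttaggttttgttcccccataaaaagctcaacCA

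These 3 fragments held 188, 185 and 181 reporter ends over all 12 matrices, together 5.04% of the 11002 ends in the flank. Signal in the flank was spread widely. Of its 136 NlaIII fragments, 124 held ends in the matrices and 12 held none, and it took 39 fragments to reach 50% of the ends.

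CTCF motifs are shown next, since CTCF sites are what the D3839 allele removes elsewhere in the locus. A core of the CTCF motif (CCA, any 2 bases, AG, any 2 bases, GGC) was searched on both strands and matched 18 times in the 180 kb region, in 10% of its 1 kb bins, against 6.45% of those in the flank. Both matches in the flank lie on the minus strand in intergenic sequence, the first at chr11:32072794-32072805 and the second at chr11:32087460-32087471, just beyond the 3′ end of *Il9r*. They are printed with 9 bases on each side, the match in capitals.

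Motif match far upstream: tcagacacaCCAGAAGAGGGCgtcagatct

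Motif match beyond the Il9r 3′ end: ccttggaggCCAGAAGAGGGCatcagatct

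Both matches have the same 12 letters, CCAGAAGAGGGC, of which the region holds 7 copies among its 18 matches. B2 short interspersed elements, a repeat family of rodents, are known to carry CTCF motifs. Whether these copies lie in B2 elements was not examined, and whether CTCF occupies these letters was not measured here. The fragment with the second match held 0, 6 and 2 reporter ends with R2 in WT and 16, 2 and 13 in D3839, and with *Mpg* 17, 4 and 9 in WT and 14, 19 and 13 in D3839. The ranges of WT and D3839 overlapped in both viewpoints. The fragment with the first match held at most 2 ends in any library.

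Matrices of the 180 kb region captured with R2 held between 8651 and 16115 contacts, those with *Mpg* between 10237 and 18951, and a share of 3 counts, the smallest considered visible, is 0.0079% to 0.0173% of the reporter ends. That floor covers counting error only, since contacts from the same read are not independent. The region held 46.0% to 48.2% of all chromosome 11 contacts seen with R2 in WT and 63.1% to 66.9% in D3839, and 32.8% to 41.2% and 49.4% to 53.8% with *Mpg*, so the choice between the region total and the chromosome total as the scale moves every genotype difference. Changing to the chromosome total shifted the median log2 fold change of 36 bins of 5 kb from -0.06 to 0.40 for R2 and from -0.02 to 0.47 for *Mpg*. Values below are relative to the region total unless stated. WT replicate 3 of *Mpg* stood apart from WT replicates 1 and 2 in the flank, and the main results are given with and without it.

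Seen from the *Mpg* promoter, the flank fell in D3839. Its share of reporter ends was 0.217%, 0.234% and 0.147% per kb in WT replicates 1, 2 and 3 and 0.120%, 0.118% and 0.129% per kb in D3839. WT replicates 1 and 2 were high, WT replicate 3 lay closer to D3839, and the groups did not overlap. The means were 0.199% ± 0.0462 and 0.122% ± 0.00587 per kb (SD, n = 3), and the log2 fold change was -0.70 (SE, the standard error, 0.165, with an edgeR adjusted p = 0.0063). Without WT replicate 3 the log2 fold change was -0.88, the end of a range of -0.88 to -0.57 on leaving out each replicate in turn. In a cell population, fewer cells with a contact and a less frequent contact in each cell cannot be told apart.

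Both portions of the flank fell. The sequence beyond the *Il9r* 3′ end went from 0.132% ± 0.0296 to 0.0688% ± 0.0056 per kb (SD, n = 3), a log2 fold change of -0.94 (SE 0.19, edgeR adjusted p = 0.0039), and of -1.11 without WT replicate 3. Leaving out each replicate in turn gave -1.11 to -0.79 for this sequence. The *Il9r* body held 0.327%, 0.337% and 0.210% per kb in WT and 0.191%, 0.193% and 0.204% in D3839. Its lowest WT replicate was thus within 0.01 percentage points of the highest D3839 replicate, although the groups did not overlap. The log2 fold change of the body was -0.57 (SE 0.186, edgeR adjusted p = 0.028), or -0.76 without WT replicate 3. This call was lost, with adjusted p-values from edgeR of 0.0742 to 0.1, on leaving out WT replicate 1 or 2 or any of the 3 D3839 replicates. It was also lost with TMM normalization (edgeR adjusted p = 0.0878) and with DESeq2 (adjusted p = 0.0508). Scaled by all chromosome 11 contacts, the whole flank had -0.20 (edgeR adjusted p = 0.277) and the body -0.07 (adjusted p = 0.749), while the sequence beyond the 3′ end still fell by 0.44 on the log2 scale (adjusted p = 0.0465).

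Seen from R2 the flank did not differ beyond the spread between replicates. It held 0.0535%, 0.0431% and 0.0487% per kb in WT and 0.0474%, 0.0504% and 0.0572% in D3839. The 2 ranges overlapped. The means were 0.0484% ± 0.00518 and 0.0516% ± 0.00502 per kb (SD, n = 3), and the log2 fold change was 0.09 (SE 0.17, edgeR adjusted p = 0.726). The *Il9r* body, with 0.0702%, 0.0740% and 0.0794% per kb in WT and 0.0663%, 0.0813% and 0.0816% in D3839, had a log2 fold change of 0.03 (SE 0.185, edgeR adjusted p = 0.951). The sequence beyond the 3′ end had 0.19 (SE 0.246, edgeR adjusted p = 0.579), with WT between 0.0208% and 0.0414% per kb and D3839 between 0.0279% and 0.0394%. Scaled by all chromosome 11 contacts, the R2 contacts of the flank rose instead, with a log2 fold change of 0.55 (edgeR adjusted p = 0.0095). Over 6 comparisons of segment and viewpoint, two-sided exact permutation tests of 3 against 3 gave p = 0.1 for each *Mpg* segment, the smallest value they allow, and adjusted values of 0.20.

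**Figure D1:**
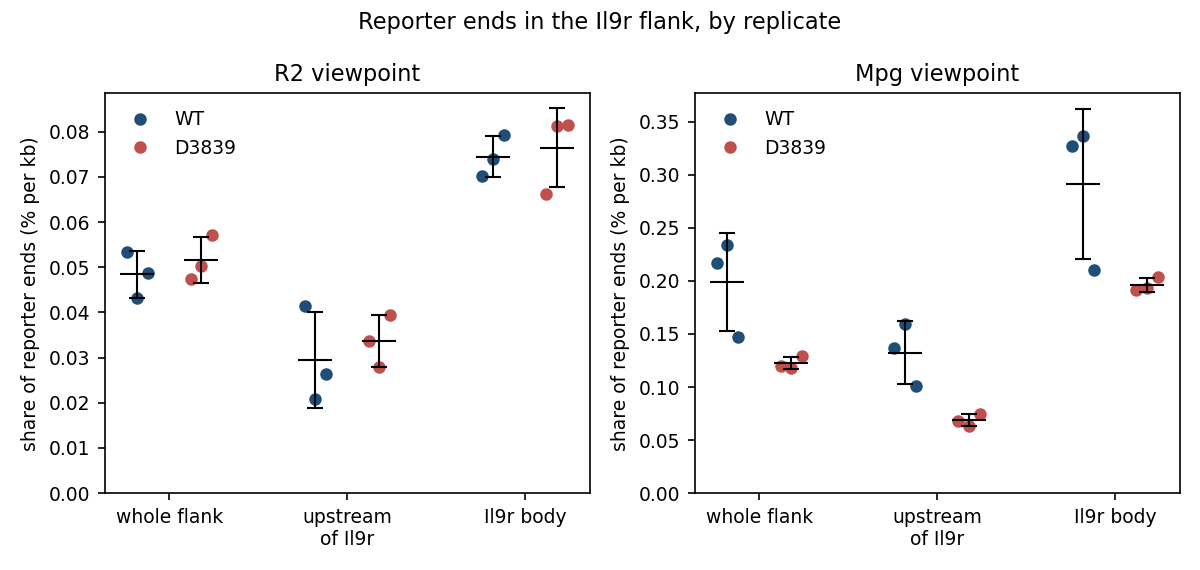
Share of reporter ends per kb (in percent, axes from 0) in the whole flank, the sequence beyond the Il9r 3′ end and the Il9r body, for each replicate (points) with the mean and SD of 3 replicates (black). With R2, WT (0.0431 to 0.0535 in the whole flank) and D3839 (0.0474 to 0.0572) overlap, and with Mpg the 3 D3839 points (0.118 to 0.129) lie below the 3 WT points (0.147 to 0.234).

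The viewpoints were then set against each other. WT flank shares were 4.05-fold higher with *Mpg* than with R2, and D3839 shares 2.38-fold higher. The *Mpg* viewpoint lies nearer, 26.6 to 56.9 kb from the flank against 50.7 to 81.0 kb for R2, in both genotypes alike. The log2 ratio of *Mpg* to R2 was 2.02, 2.44 and 1.59 in WT and 1.34, 1.23 and 1.17 in D3839. All D3839 ratios were lower than all WT ratios, a difference of -0.77 (two-sided exact permutation test, p = 0.1). Both viewpoints of a ratio come from the same replicate. Without WT replicate 3 the difference was -0.98, the end of a range of -0.98 to -0.56 on leaving out each replicate in turn. For the *Il9r* body alone it was -0.57 and the groups overlapped (exact permutation test, p = 0.2).

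Along the flank, mean shares with *Mpg* were highest in the last bin before the *Il9r* promoter and lowest in the outermost 2 bins in both genotypes. Whether the bins differ among themselves in their change was not tested. Of 6 bins of 5 kb, 5 fell and 0 rose in D3839, where 41.7% of all 36 bins of the region fell and 25.0% rose. On the chromosome 11 scale 5 of the 36 bins fell and 18 rose. In that last bin (32095001 to 32100000), which lies in the *Il9r* body and ends short of its start site, WT held 0.439%, 0.344% and 0.220% per kb and D3839 0.255%, 0.238% and 0.252%. WT replicate 3 lay below all D3839 replicates there, and the log2 fold change of -0.42 (SE 0.236) did not pass the threshold (edgeR adjusted p = 0.145). The next bin, from 32090001, went from 0.244% ± 0.0558 to 0.167% ± 0.0125 per kb (SD, n = 3), a log2 fold change of -0.54 (edgeR adjusted p = 0.0351).

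The bin at the *Il9r* 3′ end, from 32085001 to 32090000, had the smallest adjusted p of the 6. WT held 0.247%, 0.324% and 0.196% per kb and D3839 0.106%, 0.120% and 0.148%, a log2 fold change of -1.03 (SE 0.225, edgeR adjusted p = 0.0049). It contains *Gm12109* and the second motif match. The bin from 32080001 fell from 0.140% ± 0.0112 to 0.0871% ± 0.00736 per kb (log2 fold change -0.68, edgeR adjusted p = 0.0138). The 2 outermost bins, from 32070001 and 32075001, had log2 fold changes of -1.17 (adjusted p = 0.039) and -0.90 (adjusted p = 0.0351, both from edgeR). WT replicate 3 lay inside the D3839 range in both, with 0.0479% per kb in the outermost bin against 0.0391% to 0.0570% in D3839, so that these groups overlapped. The 5 calls became 2 with TMM normalization or DESeq2 and 1 when replicate numbers entered the fit as a block or the chromosome total was the scale. Leaving out WT replicate 1 or 2 or D3839 replicate 1 or 2 left 2 calls, leaving out D3839 replicate 3 left 3, and leaving out WT replicate 3 gave 6.

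With R2, 0 of the 6 bins passed in either direction, by edgeR's adjusted p or at an unadjusted p under 0.05. Over the region, 13.9% of 36 bins rose and 16.7% fell, and without adjustment 6 were higher and 6 lower. DESeq2 called 0 as well, whereas the chromosome 11 scale, on which 18 of the 36 bins rose and 0 fell, called 1 of the 6 higher. The last 5 kb bin before the promoter was the only bin of the flank whose groups did not overlap. It held 0.0673%, 0.0763% and 0.0849% per kb in WT and 0.0876%, 0.105% and 0.0900% in D3839, where 19.4% of all bins lay wholly higher in D3839. Its log2 fold change of 0.30 (SE 0.241) did not pass (edgeR adjusted p = 0.374), and it changed sign when each fragment pair was counted once. The other 5 bins had log2 fold changes between -0.20 and 0.34.

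**Figure D2:**
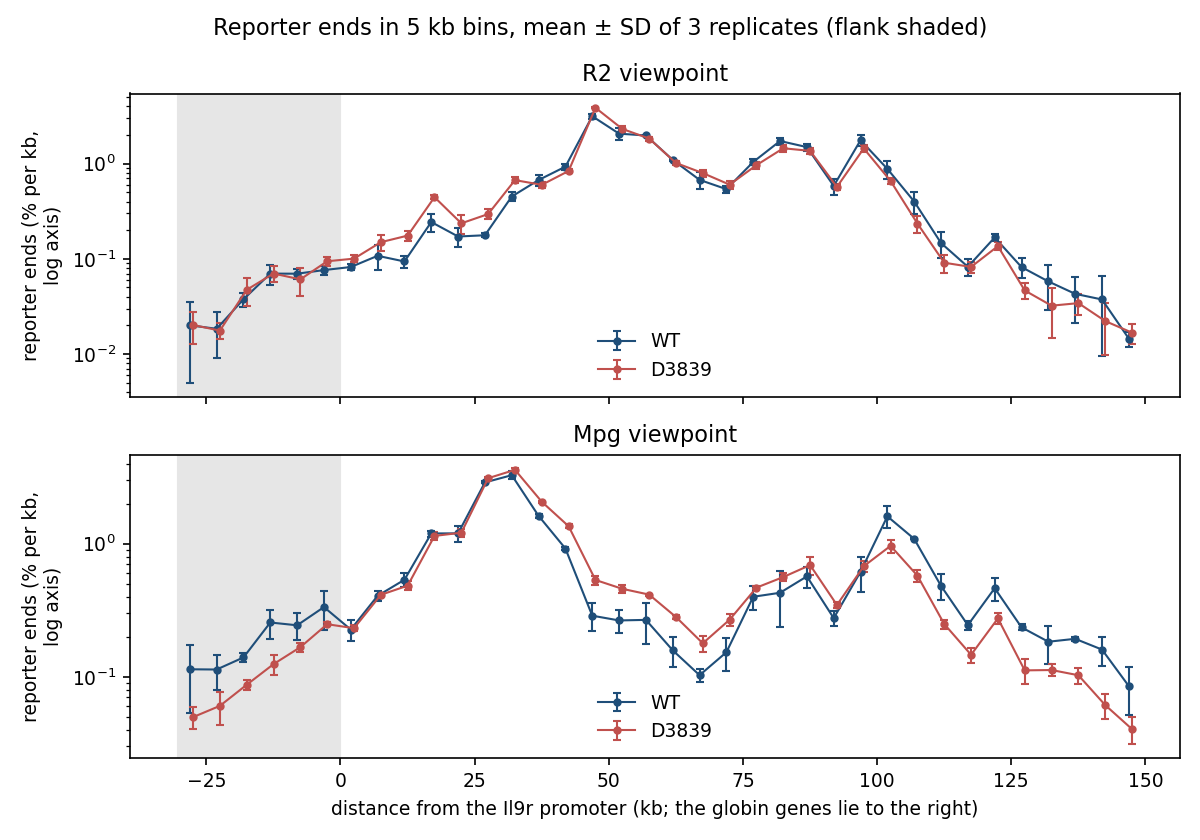
Reporter ends in 5 kb bins (percent per kb, log axis) against distance from the Il9r promoter in kb, as mean ± SD of 3 replicates for WT and D3839, with the flank shaded. With Mpg, D3839 runs below WT across the flank, from 0.249 against 0.334 in the last bin before the promoter to 0.0498 against 0.114 at the outer edge, while with R2 the groups overlap in 5 of the 6 flank bins and D3839 is higher in the last bin before the promoter (0.0943 against 0.0762).

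A window of 5 kb centred on the *Il9r* promoter, which reaches past the flank on the side of *Snrnp25*, gave another picture than the bin at the 3′ end. Seen from R2, the promoter window held 0.0610%, 0.0485% and 0.0509% per kb in WT and 0.0721%, 0.0697% and 0.0627% in D3839. All D3839 replicates were higher (means 0.0535% ± 0.0066 and 0.0682% ± 0.00489, SD, n = 3, exact permutation test, p = 0.1). Seen from *Mpg* the promoter window held 0.206% ± 0.0668 and 0.185% ± 0.00762 per kb, and the groups overlapped (exact permutation test, p = 0.7). The 3′ end bin, in contrast, had means of 0.256% ± 0.0644 and 0.125% ± 0.0214 per kb with *Mpg* (no overlap) and of 0.0699% ± 0.0172 and 0.0700% ± 0.0136 with R2 (SD, n = 3). Whether the promoter window and the 3′ end bin differ in their change was not tested. The restriction fragment with the promoter held 5, 4 and 2 ends with R2 in WT and 7, 12 and 6 in D3839, too few to compare alone.

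To ask whether the flank gained or lost against other sequence equally far away, its share was divided by that of the interval at the same distance on the globin side of each viewpoint. For *Mpg* this interval, chr11:32153469-32183747, holds the 5′ part of *Nprl3*, its promoter, *Hba-x* and the promoter of *Hba-a1*. It lies across the deleted CTCF sites from *Mpg*, on the side where the paper reports more *Mpg* interactions in D3839. For R2 the interval is chr11:32201755-32232033, beyond the globin genes. With *Mpg* the ratio was 1.13, 1.31 and 0.535 in WT and 0.364, 0.359 and 0.399 in D3839. The flank was thus contacted about as often as the other side by WT replicates 1 and 2 and less often by all D3839 replicates. With R2 the ratio was 0.254, 0.271 and 0.225 in WT and 0.397, 0.344 and 0.379 in D3839, so that all D3839 replicates were higher. The log2 differences were -1.31 for *Mpg* and 0.58 for R2, each without overlap (two-sided exact permutation test, p = 0.1). Without WT replicate 3 the *Mpg* difference was -1.70, the end of a range of -1.70 to -1.06 on leaving out each replicate in turn. The equal-distance intervals themselves moved, from 0.215% ± 0.0519 to 0.327% ± 0.00336 per kb with *Mpg* and from 0.196% ± 0.0316 to 0.139% ± 0.0171 with R2 (SD, n = 3). The *Mpg* ratio thus combines values that differ on both sides. With R2 the share of the flank itself overlapped between the genotypes, and only that of the equal-distance interval was without overlap.

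**Figure D3:**
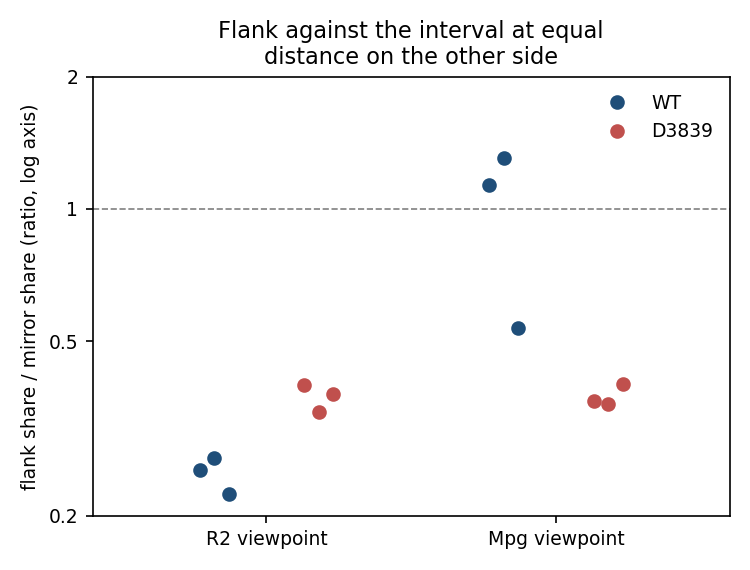
Ratio of the flank's share of reporter ends to that of the interval at equal distance on the other side of the viewpoint (log axis), one point per replicate, with a dashed line at 1. D3839 lies above WT with R2 (0.344 to 0.397 against 0.225 to 0.271) and below WT with Mpg (0.359 to 0.399 against 0.535 to 1.31).

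Each flank contact has another end, and among the segments of the region it lay most often in the flank itself. Of all chromosome 11 contacts of the flank, 33.6% ± 1.74 in WT and 34.1% ± 7.23 in D3839 (SD, n = 3) stayed within the flank with *Mpg*, and 29.2% ± 2.8 and 30.3% ± 6.18 with R2. Contacts within the flank were mostly between neighbouring fragments, 73.5% in WT and 73.1% in D3839 with *Mpg* and 73.7% and 69.2% with R2. Neighbouring fragments can come from incomplete digestion as well as from a contact, and their part was not tested beyond leaving them out. Contacts that left the 180 kb region made up 35.0%, 38.9% and 34.1% of *Mpg* flank contacts in WT and 26.6%, 29.5% and 21.3% in D3839. All D3839 replicates were lower (exact permutation test, p = 0.1). With R2 the same share was 28.5% ± 7.86 and 16.5% ± 3.12 (SD, n = 3), and the groups overlapped by a small margin (exact permutation test, p = 0.2). The region as a whole shifted the same way, from 37.0% ± 4.2 to 51.6% ± 2.24 of all chromosome 11 contacts with *Mpg* and from 47.1% ± 1.11 to 64.7% ± 1.95 with R2 (SD, n = 3), so fewer contacts left it in D3839 for all contacts too.

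Counts of flank contacts were then compared by the segment of the other end. Seen from *Mpg*, 2 of 7 segments fell and 0 rose, where 5.56% of 36 segment pairs of the region fell and 19.4% rose. Those 36 pairs split the flank into its 2 portions, whereas the 7 pool them and are not among the 36, so these shares are not of like rows. Among the 36, the only flank pair to fall was the portion beyond the *Il9r* 3′ end with itself. Contacts within the flank were counted 544, 506 and 508 times in WT and 429, 363 and 489 times in D3839, out of region totals that were larger in D3839. Relative to those totals the log2 fold change was -0.83 (SE 0.218, edgeR adjusted p = 0.0087), and -0.99 with neighbouring fragments left out (adjusted p = 0.0184). The call was lost without WT replicate 1 (adjusted p = 0.0502), without D3839 replicate 2 (adjusted p = 0.0577) and with TMM normalization (adjusted p = 0.052, all from edgeR), and on the chromosome 11 scale the value was -0.33 (edgeR adjusted p = 0.247). Without WT replicate 3 it was -1.001. The portion beyond the *Il9r* 3′ end had the larger log2 fold change of the 2 portions, with 185, 203 and 199 contacts within itself in WT and 123, 89 and 156 in D3839 (log2 fold change -1.22, SE 0.279, edgeR adjusted p = 0.0043). *Il9r* with itself had -0.63 (edgeR adjusted p = 0.0503).

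Contacts between the flank and the sequence downstream of the globin genes, past *Hbq1a*, fell too. They numbered 116, 117 and 85 in WT and 81, 91 and 79 in D3839, a log2 fold change of -0.91 (SE 0.293, edgeR adjusted p = 0.0272). Leaving out any 1 replicate other than WT replicate 3 ended this call (edgeR adjusted p of 0.0843 to 0.14). Without WT replicate 3 it was -1.18. The downstream sequence was also lower for all *Mpg* reporter ends, with 22.2% ± 0.719 of them in WT and 12.1% ± 1.13 in D3839 (SD, n = 3, no overlap), and whether its contacts with the flank differed beyond that was not tested. Scaled by all chromosome 11 contacts it was -0.40 (adjusted p = 0.211).

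Flank contacts with the globin genes lay the other way. These reads join *Mpg*, the flank and the segment from the *Nprl3* promoter to *Hbq1a*, which holds ζ-globin (*Hba-x*), the adult α-globins (*Hba-a1* and *Hba-a2*) and the θ-globins. They numbered 38, 29 and 43 in WT and 60, 76 and 68 in D3839, and every D3839 replicate was higher. The log2 fold change was 0.39 and did not pass (SE 0.267, edgeR adjusted p = 0.25). As a share of flank contacts they were 2.26%, 1.87% and 3.01% in WT and 4.64%, 5.73% and 5.81% in D3839, without overlap (exact permutation test, p = 0.1). In a fit relative to the flank contacts inside the region the log2 fold change was 0.97 (edgeR adjusted p = 0.0057). On that scale the globin genes were the only segment to pass. The shares of *Snrnp25* and *Rhbdf1*, at 6.82% ± 1.94 and 8.68% ± 0.394, and of the segment from R2 to the *Nprl3* promoter, at 0.799% ± 0.202 and 1.45% ± 0.36 (SD, n = 3), also lay higher in every D3839 replicate. Flank contacts that left the region, whose share was lower in D3839, are part of the same total, so that shares within the region lie higher as a sum. Not every segment followed. The mean share of the downstream sequence moved slightly down, from 6.81% to 6.63%, and that of the flank itself hardly moved, from 33.6% to 34.1%, both with overlap. The means of the *Mpg* segment and of the sequence between *Mpg* and R2 lay higher, also with overlap.

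The other segments held values that did not pass with *Mpg*. Contacts with *Snrnp25* and *Rhbdf1*, genes for a minor spliceosome protein and an inactive rhomboid, had a log2 fold change of -0.46 (adjusted p = 0.157). Those with the *Mpg* segment had -0.37 (adjusted p = 0.337), those between *Mpg* and R2 -0.53 (adjusted p = 0.127), and those from R2 to the *Nprl3* promoter 0.06 (adjusted p = 0.873, all from edgeR). Of the 7 segments, 3 had wholly lower and 1 wholly higher shares in D3839, where 25.0% and 33.3% of the segment pairs with the flank split into its portions did.

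Seen from R2, 0 of the 7 segments passed in either direction, where 8.33% of the segment pairs with the flank split into its portions rose and 0% fell. Without adjustment, 1 was higher and 0 lower at p under 0.05, and DESeq2 called 0 of them. That segment was the neighbouring one with *Snrnp25* and *Rhbdf1*, in which the *Il9r* promoter fragment is counted. It met the flank and R2 in 7, 12 and 15 contacts in WT and 32, 41 and 30 in D3839. Every D3839 replicate was higher than every WT replicate, also as a share of flank contacts (2.54%, 4.82% and 3.92% in WT and 7.75%, 10.3% and 6.32% in D3839). The same segment was wholly higher for all R2 reporter ends, at 0.127% ± 0.0165 and 0.212% ± 0.0119 per kb (SD, n = 3), and whether its contacts with the flank differed beyond that was not tested. The log2 fold change was 1.01 (SE 0.394, edgeR adjusted p = 0.0972), and 1.46 scaled by all chromosome 11 contacts (adjusted p = 0.0106). Of the 7 segments it was the only one without overlap, where 25.0% of the segment pairs with the flank split lay wholly higher in D3839. Contacts of the flank with the globin genes numbered 31, 20 and 43 in WT and 47, 43 and 59 in D3839, a log2 fold change of 0.09 (adjusted p = 0.848), and those between *Mpg* and R2 53, 23 and 38 against 61, 66 and 49, a log2 fold change of 0.03 (adjusted p = 0.94, both from edgeR). Those with the *Mpg* segment, with 12, 6 and 9 contacts in WT and 5, 12 and 4 in D3839, had a log2 fold change of -0.94 (SE 0.631, edgeR adjusted p = 0.351). Those from R2 to the *Nprl3* promoter had 0.55 (adjusted p = 0.468), those downstream 0.30 (adjusted p = 0.62) and those within the flank -0.02 (adjusted p = 0.94, all from edgeR).

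**Figure D4:**
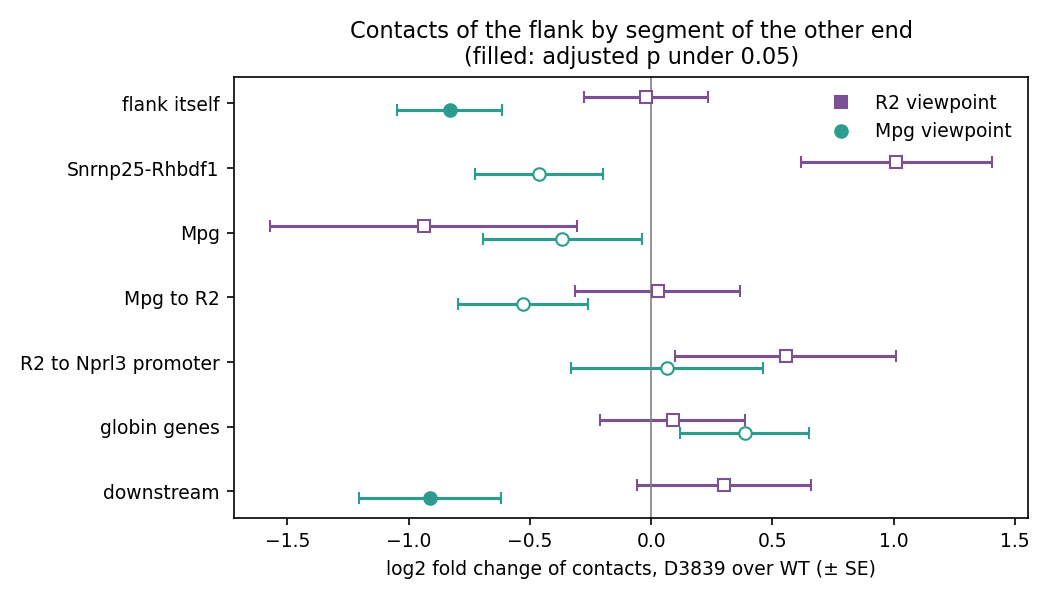
Log2 fold change of flank contacts, D3839 over WT, by segment of the other end, with SE bars from edgeR for 3 against 3 replicates, squares for R2 and circles for Mpg, filled where the adjusted p is under 0.05. Only the flank itself (-0.83) and the downstream sequence (-0.91), both with Mpg, are filled.

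At a finer scale, the other ends outside the flank but inside the 180 kb region were counted in bins of 5 kb. Percentages are of these contacts, without those that left the region. The bins at each viewpoint are incomplete because the bins around the viewpoint were left out. With *Mpg* the leading 5 kb bin, 32130001 to 32135000 at the 3′ end of *Mpg*, took 17.1% ± 4.94 of them in WT and 12.8% ± 1.86 in D3839 (SD, n = 3). With R2 it was the bin from 32145001 to 32150000, which reaches to the edge of the viewpoint, with 16.8% ± 10.3 and 17.4% ± 1.36. Both bins held the highest share of the 30 in both genotypes, a rank that was not corrected for the incomplete bins.

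The rest of the *Mpg* profile held bins without overlap between the genotypes. Of 30 bins, 3 were wholly higher in D3839, or 10%, and 2 wholly lower, or 6.67%. The bin from 32145001, next to R2 on the flank's side, took 0.548%, 1.14% and 0.693% in WT and 3.66%, 2.8% and 1.62% in D3839. It was wholly higher for all *Mpg* reporter ends too, at 0.288% ± 0.0686 and 0.534% ± 0.043 per kb (SD, n = 3). The bin from 32180001 with *Hba-a1* took 0.459% ± 0.397 and 2.34% ± 0.64, and the bin from 32200001 with *Hbq1a* 2.81% ± 0.488 and 5.88% ± 1.7 (SD, n = 3).

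The 2 bins wholly lower in D3839 lie next to each other, past the bin of *Hbq1a*. From 32205001 the flank's other ends took 4.2%, 4.78% and 7.39% in WT and 3.08%, 2.62% and 2.31% in D3839. From 32210001 they took 3.66%, 4.56% and 5.08% in WT and 1.73%, 0.699% and 0.926% in D3839. Both bins were also wholly lower for all *Mpg* reporter ends, at 1.09% ± 0.00987 and 0.576% ± 0.0565 per kb from 32205001 and 0.482% ± 0.106 and 0.249% ± 0.0196 per kb from 32210001 (SD, n = 3), so this order was not particular to flank contacts. The bin of *Hbq1a*, higher among the flank's other ends, was lower for all *Mpg* reporter ends, at 1.61% ± 0.302 and 0.964% ± 0.11 per kb. With 30 bins the exact test (p = 0.1 for each of the 5, the smallest it allows) allows no call after adjustment.

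With R2, 2 bins were wholly higher in D3839 (6.67% of 30) and 1 wholly lower (3.33%). The bin from 32115001, in *Rhbdf1*, took 2.24%, 0% and 0% in WT and 2.52%, 6.78% and 2.97% in D3839, from 0 to 3 and 6 to 16 contacts. It was wholly higher for all R2 reporter ends too, at 0.243% ± 0.0509 and 0.444% ± 0.0225 per kb (SD, n = 3). The bin from 32210001 took 1.35% ± 1.17 and 4.65% ± 2.58 (SD, n = 3), which was the opposite order to that with *Mpg* in the same bin. The bin lower in D3839, from 32140001, went from 4.98% ± 0.439 to 3.31% ± 1.58. All of these rest on 18 contacts or fewer per replicate.

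**Figure D5:**
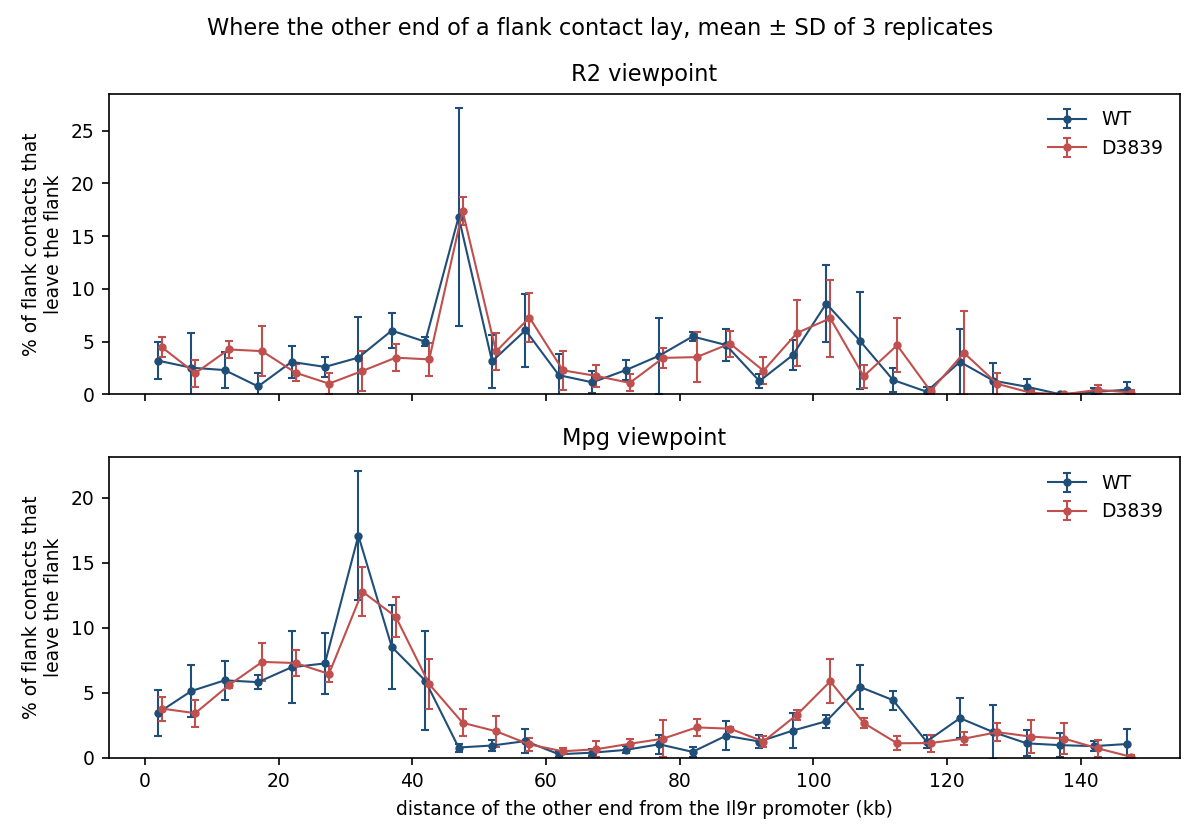
Position of the other end of flank contacts that left the flank but stayed inside the 180 kb region, in 5 kb bins by distance from the Il9r promoter (kb), as percent of those contacts (mean ± SD of 3 replicates). With Mpg, WT exceeds D3839 in the neighbouring bins at 107 and 112 kb (5.46 and 4.43 against 2.67 and 1.12) and D3839 exceeds WT at 102 kb (5.88 against 2.81).

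Pairs of 5 kb bins were tested over the whole region. With *Mpg*, 102 of 482 tested pairs had at least 1 end in the flank, and of these 2 fell and 0 rose, where 2.70% of all pairs fell and 2.28% rose. Over all 482 pairs, 66 rose and 3 fell on the chromosome 11 scale, and 2 rose and 15 fell with DESeq2. Without adjustment, 12 of the 102 flank pairs were lower and 1 was higher at p under 0.05, against 41 lower and 62 higher among all 482. The groups did not overlap in 14 lower and 4 higher pairs (11% and 16.4% of all pairs). The median log2 fold change of the 102 was -0.53, against 0.06 for all pairs. Both called pairs join a bin of the flank to itself. The bin at the *Il9r* 3′ end (32085001 to 32090000) held 96, 113 and 112 contacts in WT and 65, 48 and 84 in D3839 (log2 fold change -1.25, SE 0.316, edgeR adjusted p = 0.0054). The call was lost without WT replicate 2, D3839 replicate 1 or D3839 replicate 2 (adjusted p-values from edgeR of 0.0692, 0.0822 and 0.0989). The bin from 32075001 to 32080000 held 54, 52 and 46 in WT and 20, 21 and 43 in D3839 (log2 fold change -1.40, SE 0.408, edgeR adjusted p = 0.0207), with D3839 replicate 3 near the WT counts. This call held only without WT replicate 3 or D3839 replicate 3 among the 6 fits that left out 1 replicate, and not with neighbouring fragments left out (edgeR adjusted p = 0.498). On the chromosome 11 scale neither pair passed (edgeR adjusted p = 0.117 and 0.125).

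The flank pair with the smallest p among those higher with *Mpg* joins *Il9r* (32090001 to 32095000) to the bin of *Hba-a1* (32180001 to 32185000). It held 0, 0 and 0 contacts in WT and 5, 4 and 1 in D3839 and did not pass (edgeR adjusted p = 0.215). The same pair was the one with the smallest p among those lower with R2, with 3, 3 and 3 contacts in WT and 2, 1 and 0 in D3839 (edgeR adjusted p = 0.593). With R2, 44 of 358 tested pairs touched the flank and 0 were called in either direction, as over the whole region (0%). At an unadjusted p under 0.05, 1 of the 44 was higher and 0 lower, against 28 higher and 19 lower among all 358. DESeq2 called 0 of all 358 pairs. The 1 higher flank pair joins the bins from 32075001 and from 32110001, with 0, 0 and 0 contacts in WT and 6, 8 and 0 in D3839 (edgeR adjusted p = 0.2). The groups did not overlap in 4 higher and 2 lower pairs (12.8% and 5.31% of all pairs). The median of the 44 was -0.09, against 0.11 for all pairs. Counts this low limit the test of single pairs.

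*Il9r* had the lowest mean share per kb of the 10 genes of the region in both viewpoints and both genotypes, but with *Mpg* in WT this rested on replicate 3. With R2 its WT mean of 0.0745% per kb was followed by *Snrnp25* at 0.117% ± 0.041 (SD, n = 3), whose WT range of 0.0842% to 0.163% lay above that of *Il9r*. With *Mpg* in WT, *Il9r* at 0.291% ± 0.0704 per kb was next to *Hba-x*, which held 0.323%, 0.310% and 0.509%. *Hba-x* lay below *Il9r* in WT replicates 1 and 2 and above it in replicate 3 alone, so that without replicate 3 *Hba-x* was the lowest. In D3839 the neighbour in order was *Snrnp25*, at 0.470% ± 0.0137 against 0.196% ± 0.00677, without overlap. *Il9r* is also the gene farthest from both viewpoints on its side, and distance was not corrected for.

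Among 9 other genes, those with the smallest mean absolute difference from *Il9r* over 12 combinations of viewpoint and replicate, each viewpoint centred on log2, were *Nprl3* (0.272), *Snrnp25* (0.317) and *Mpg* (0.327). None of the 3 tracked it closely. The mean absolute deviation of *Il9r* from its own centre was 0.214, smaller than each of these differences. *Nprl3*, which encodes an inhibitor of mTORC1, varied least itself (0.113), and by Pearson's correlation across the 12 values it had rank 5 of 9, with -0.76. That correlation used values that were not centred, and by it *Mpg*, *Rhbdf1* and *Snrnp25*, the genes between *Il9r* and HS-39, came first, with 0.94 for *Mpg* and 0.92 for the others. With each viewpoint centred the same correlations were -0.08, 0.19 and 0.21, and that of *Nprl3* was -0.69. The 12 values share 6 replicates.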

How the data were processed

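Tri-C contacts of 3 WT and 3 D3839 replicates were analysed for the R2 and *Mpg* viewpoints. The authors deposited raw counts of unique contacts, 1 per pair of chromosome 11 NlaIII fragments. The submitters' processing notes name Trim Galore, Bowtie and mm9. By the study's methods, CCseqBasic removed spurious ligations, PCR duplicates and fragments targeted by other capture oligonucleotides, and reads with at least 2 reporters were kept. Their correction for fragments per bin was applied here only as an alternative for shares, since count tests need counts. All 88602 fragments matched an in silico NlaIII digest of mm9. No interval was computed, as contacts of a read are dependent.

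Contacts were placed by fragment midpoint in 180 bins of 1 kb (32070001 to 32250000), without the bin of the viewpoint and the 1 adjoining it on either side. The viewpoint was the longest stretch without reporters. Rows reaching 10 counts over 6 samples entered edgeR's quasi-likelihood test (edgeR 4.0.16, R 4.3.3), with matrix totals for library sizes, and p-values were adjusted by Benjamini-Hochberg over all rows of a fit (36 bins of 5 kb with 3 segments, 43 segment rows or all bin pairs), called at 0.05. Each standard error was derived from the F statistic. Shares were compared by two-sided exact permutation tests (scipy 1.17.1, numpy 2.4.6, pandas 2.3.3, python 3.11.15), where 3 against 3 allow no p below 0.1. Figures were drawn with matplotlib 3.10.9. The fits were tested on simulated data with changes of 2-fold and 4-fold in a seeded subset of the rows, in 10 runs each.

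Replicates of a group differed from each other beyond counting noise in all 12 pairs (chi-square per degree of freedom of 4.1 to 32.8 over 5 kb bins of ends). Genes were named by rule: *Il9r*, the 3 genes closest to it, all 5 kb bins of the flank, bin pairs with the smallest p per direction, and the 3 fragments with the most ends. The windows, partner bins, promoter letters and copies of the motif core were added after values had been seen. The members and lists were chosen with earlier results of these data known. Replicate numbers give no stated pairing. Alternatives were TMM normalization, DESeq2 1.42.0, the replicate block, the chromosome 11 total as library size, same-bin and neighbouring fragments left out, 3 bins around the viewpoint, fragment pairs counted once, shares divided by restriction fragments, bins of 10 kb, no count filter and each replicate left out.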

Additional observations from a re-analysis of the deposited data

Results flagged for a closer look

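The ratio of the flank to the interval at equal distance on the other side of the viewpoint moved in opposite directions in the 2 viewpoints. With R2 it was higher in all 3 D3839 replicates than in all WT replicates, a log2 difference of 0.58, and with *Mpg* it was lower in all 3, a log2 difference of -1.31. The difference between these 2 differences was not tested, since the reference interval is another stretch of sequence for each viewpoint. With R2 the share of the flank itself overlapped between the genotypes, while that of the reference interval was lower in all D3839 replicates. Both viewpoints come from the same 6 replicates, and the part of the library kits, which follow the genotypes, cannot be told apart from that of the deletions.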

How the results depend on the processing

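With library sizes from all chromosome 11 contacts, the R2 log2 fold change was 0.55 for the flank, 0.49 for *Il9r* and 0.65 beyond its 3′ end, and all 3 passed, while with *Mpg* the flank (-0.20) and *Il9r* (-0.065) no longer did. Calls then moved to 1 bin and 1 segment higher for R2 and, for *Mpg*, 1 segment higher, 1 bin lower and 0 segments and 0 bin pairs lower. TMM normalization gave -0.36 and DESeq2 -0.37 for *Il9r* with *Mpg*, neither past the threshold, 2 bins lower each and, for TMM, 1 segment and 4 bin pairs lower. Bins of 10 kb gave 3 of 3 lower. Relative to the flank contacts inside the region 1 segment was higher and 0 lower. With same-bin or neighbouring fragments left out 4 segments were lower, and with fragment pairs counted once 5. The cause of these changes was not tested.

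Some values changed sign, including values of *Mpg* down to -0.53 that had not passed the threshold. With R2, fragment pairs counted once gave -0.0070 for the flank, -0.057 for *Il9r*, -0.21 for the outermost bin and -0.053 for the last bin before the promoter. R2 flank contacts with the sequence between *Mpg* and R2 turned to -0.22 (TMM), -0.24 (DESeq2), -0.090 (same-bin pairs left out), -0.072 (neighbouring fragments left out), -0.072 (pairs counted once) and -0.087 (relative to the flank). Those with the globin genes turned, in the same order, to -0.14, -0.17, -0.030, -0.0079, -0.041 and -0.045. R2 contacts within the flank turned to 0.43 (chromosome total), 0.10 (neighbouring fragments left out) and 0.067 (3 bins around the viewpoint), and in the same order the R2 bin from 32075001 to 0.37, 0.20 and 0.021. The R2 bin from 32080001 turned to -0.038 (same-bin) and -0.024 (neighbouring), that from 32085001 to -0.0020 (DESeq2), and that from 32090001 to 0.25 (chromosome total) and 0.0098 (same-bin). For *Mpg*, flank contacts with the *Mpg* segment turned to 0.14 (chromosome total) and 0.30 (relative to the flank), with *Snrnp25* and *Rhbdf1* to 0.017 and 0.14 under the same settings, with the sequence between *Mpg* and R2 to 0.10 (relative to the flank), and with that from R2 to the *Nprl3* promoter to -0.17 (same-bin), -0.12 (neighbouring) and -0.15 (pairs counted once). The last *Mpg* bin before the promoter turned to 0.076 (chromosome total).

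Leaving out 1 replicate in turn gave, for *Mpg*, -0.76 to -0.45 for *Il9r*, 2 to 6 bins, 0 to 5 segments and 0 to 6 bin pairs lower, and -0.15 to 0.21 for contacts with R2 to the *Nprl3* promoter. With this viewpoint, flank contacts with the *Mpg* segment ranged from -0.70 to -0.14, and those with *Snrnp25* and *Rhbdf1* from -0.60 to -0.20. For R2, leaving out 1 replicate gave -0.016 to 0.13 for *Il9r* in the fit and -0.019 to 0.13 in its log2 share. The sequence beyond the 3′ end ranged from 0.0019 to 0.50 in the fit. R2 flank contacts ranged from -0.15 to 0.43 with *Mpg* to R2, -0.27 to 0.10 within the flank and -0.051 to 0.18 with the globin genes. The bins from 32070001, 32075001, 32085001 and 32090001 had -0.39 to 0.64, -0.40 to 0.21, -0.15 to 0.20 and -0.35 to 0.052.

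With the replicate block the flank had -0.68 for *Mpg* and 0.09 for R2, and 1 bin was called lower for *Mpg*. Same-numbered replicates did not deviate together over bin pairs (mean correlation 0.0022 for R2 and -0.0071 for *Mpg*). Over bins of reporter ends the means were 0.063 for R2 and -0.29 for *Mpg*. Such correlations cannot settle whether the numbers pair the samples, and the labels state no pairing. The likeness rank of *Nprl3* moved from 1 to 5 under Pearson's correlation.

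In all, 300 alternative values of the main comparisons kept their direction and side of the threshold (for counts, within 1.5 times), 33 moved, 9 lost and 3 gained a call, and 8 changed sign. Values from exact tests, whose smallest possible p lies above the threshold, could change only in direction. Of the alternative values of single segments, bins, pairs and gene ranks, 324 kept both (for ranks, a place in the first 3), 55 changed sign, 55 lost and 18 gained a call and 1 moved. Dividing shares by restriction fragments gave -0.72 for the *Mpg* flank and 0.19 for the R2 flank on the log2 scale, and changed no direction of a share or ratio. On simulated data, 2-fold changes were recovered in 82.9% of changed 5 kb bins with R2 and in 95.7% with *Mpg*. In bin pairs they were recovered in 8.31% and 6.59%, so depth limits what can be seen in single bin pairs of both viewpoints. These rates cover the whole region, and the R2 flank holds only 161 to 380 contacts of a matrix.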
